A study of Mus musculus with 4 samples.

Results

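Neutrophils high in Ccl3 and Ccl4 are barcodes of mouse lung cells that carry neutrophil receptor transcripts together with a large share of transcripts for the chemokines Ccl3 and Ccl4. They were selected on measured values, so the levels of the selecting genes below are a description. A barcode was kept if it held 500 or more UMIs (unique molecular identifiers, 1 per captured RNA molecule) and 200 or more genes, with mitochondrial UMIs making up no more than 10%. The neutrophil gate then required at least 2 UMIs in sum of Csf3r, Cxcr2, Il1r2 and Hcar2, and 0 UMIs of 7 markers of other cells (Cd3e, Cd79a, Ncr1, Marco, C1qa, Cdh5 and Csf1r). Within the gate, Ccl3 and Ccl4 had to make up at least 0.2% of UMIs. Camp and Ngp, granule genes of immature neutrophils, had to stay under 1%, and the sum of 6 interferon-induced genes (Rsad2, Ifit1, Ifit3, Isg15, Cxcl10 and Gbp5) under 10 UMIs. This rule found 1145 barcodes among 2145 in the gate and 34440 kept barcodes. They were 220 in LPS+RT, 911 in LPS, 2 in PBS+RT and 12 in PBS.

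The 4 libraries came from lungs of male wild-type C57BL/6 mice aged 6 to 7 weeks, 1 library per group. The LPS+RT mice received 200 µg of lipopolysaccharide (LPS, a cell wall component of Gram-negative bacteria, here of the Escherichia coli serotype O55:B5) through the trachea and 1 Gy of X-rays to the chest a day later, and the LPS mice received the LPS alone. The PBS+RT mice received 100 µL of saline buffer (PBS) and the same X-rays, and the PBS mice the buffer alone. Lungs were taken 48 hours after the instillation, which was 24 hours after the X-rays. The groups ask what a low dose of X-rays does to a lung injured by LPS. Cells were enriched as mononuclear cells on a Ficoll density medium before loading. Neutrophils are normally denser than mononuclear cells, so the shares of all barcodes given here hold for what this step let through. The number of mice behind a library is not stated. Since each group is 1 library, differences between groups could not be set against a spread between animals, and nothing was tested. Intervals, all exact and at 95%, hold the error of counting and no other.

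Neutrophils are the first leukocytes to enter an inflamed lung. They arrive loaded with the calcium-binding proteins S100a8 and S100a9 and with the receptor Cxcr2, and in tissue they lose part of this program. LPS, sensed through Tlr4 and Cd14, switches on NF-kB, which in neutrophils drives chemokines and interleukin 1. Ccl3 and Ccl4 are chemokines that draw in monocytes, T cells and further neutrophils, and Ccl3 acts in part through the receptor Ccr1.

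After LPS these cells were over 50% of the neutrophil gate, and few were found without LPS. They made up 51.0% of gate barcodes in LPS+RT (95% interval 46.2 to 55.9, 220 of 431) and 60.0% in LPS (57.5 to 62.5, 911 of 1518). In PBS+RT they were 1.80% (0.219 to 6.36, 2 of 111) and in PBS 14.1% (7.51 to 23.4, 12 of 85). The gate of the PBS libraries also held many barcodes with markers of other cells, as given below. As a share of all kept barcodes the selected barcodes were 2.22% in LPS+RT, 9.97% in LPS, 0.0315% in PBS+RT and 0.133% in PBS. The share of all kept barcodes was thus 4.49-fold lower in LPS+RT than in LPS, whereas the share within the gate was 1.18-fold lower. The gate itself held 4.35% of kept barcodes in LPS+RT and 16.6% in LPS. Interferon-marked gate barcodes, which the rule leaves out, were 3.71% of the gate in LPS+RT (16 of 431) and 15.2% in LPS (231 of 1518). Of these, 13 of 16 in LPS+RT and 174 of 231 in LPS also had Ccl3 and Ccl4 at 0.2% or more. With no limit on the interferon genes, the share of the gate was 54.1% in LPS+RT and 71.5% in LPS.

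**Figure D1:**
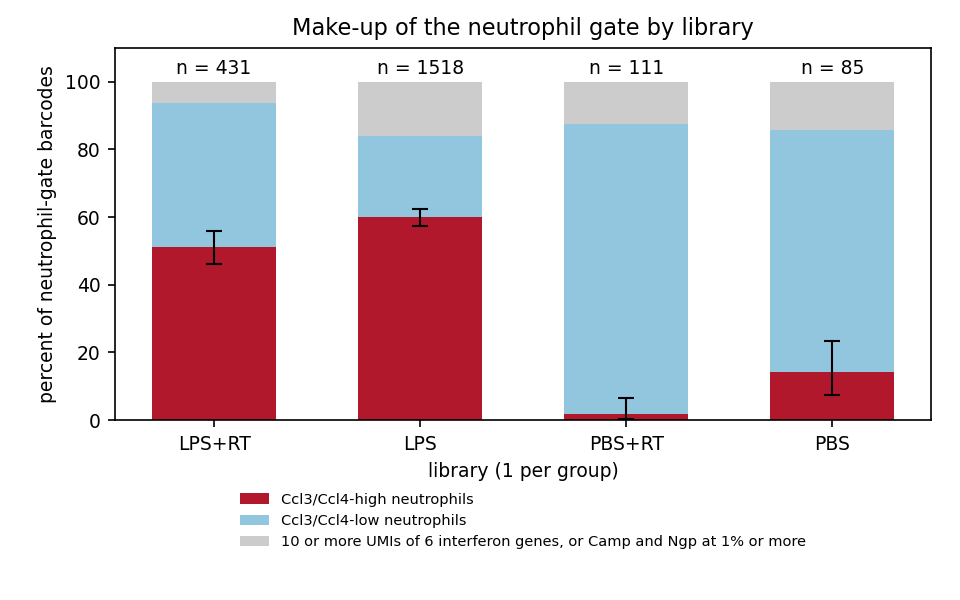
Percent of neutrophil-gate barcodes (vertical axis) in each library (horizontal axis, 1 library per group), split by the rule. Black bars are exact 95% intervals of the Ccl3/Ccl4-high share, which was 51.0% in LPS+RT and 60.0% in LPS.

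The depth behind the values was 919213 UMIs in the 220 barcodes of LPS+RT, 4398355 in the 911 of LPS, 15549 in the 2 of PBS+RT and 77224 in the 12 of PBS. Median UMIs per barcode were 3976 in LPS+RT and 4787 in LPS, and median mitochondrial shares 0.389% and 0.356%. Levels are given as CPM, the UMIs of a gene per 1000000 UMIs summed over the barcodes of a group. The 2 PBS libraries had fewer than 50 such barcodes each and enter no comparison of genes.

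The neutrophil label of the barcodes in the LPS libraries rests largely on the receptors that selected them, and markers that the rule did not use were mixed. A UMI of Csf3r, the receptor for granulocyte colony-stimulating factor, was found in 72.7% of the LPS+RT barcodes and 70.1% of the LPS barcodes. Hcar2, the receptor for hydroxybutyrate and niacin, was found in 94.5% in LPS+RT and 95.8% in LPS. The gate rested on Hcar2 alone in 35 of 220 LPS+RT barcodes and in 155 of 911 LPS barcodes. These shares were fixed in part by the gate. Of markers outside the rule, Ly6g, the surface antigen most used to define mouse neutrophils, had a UMI in 1 of 220 LPS+RT and 8 of 911 LPS barcodes, and Retnlg in 3.64% and 8.12%. A UMI of S100a8 or S100a9 was missing in 34.5% of LPS+RT and 10.5% of LPS barcodes. Of 13 marker lists of other cell types, that of monocytes and macrophages summed to 611 CPM in LPS+RT and 414 CPM in LPS, led by Cd68 at 370 and 193 CPM, against 978 and 1000 CPM in barcodes with fewer than 2 neutrophil UMIs. At least 2 UMIs of that list were present in 130 of 220 LPS+RT and 410 of 911 LPS barcodes, and none of its 10 genes was at 0. Alveolar macrophage markers summed to 372 CPM in LPS+RT and 522 CPM in LPS, most of it Chil3 (288 and 503 CPM), which neutrophils also express, with at least 2 UMIs in 42.3% and 32.2% of barcodes. Fibroblast markers summed to 508 CPM in LPS+RT and 220 CPM in LPS, and those of red blood cells to 100 CPM and 523 CPM. The part of these in the results below was not tested.

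In the PBS libraries the label did not hold for several of the few barcodes selected. Of the 2 in PBS+RT, 1 carried at least 2 UMIs of the basophil list (such as Mcpt8, Cd200r3 and Gata2), and so did 5 of the 12 in PBS. Those 5 held all 241 UMIs of Il6 found in the PBS barcodes, and none of them had a Csf3r UMI. Over the 12 in PBS, 3 MHC class II genes (H2-Aa, H2-Ab1 and H2-Eb1) summed to 10864 CPM, with over 2 UMIs in 1 barcode. In the LPS libraries 1 of 220 LPS+RT and 5 of 911 LPS barcodes carried as many basophil UMIs. Without such barcodes the share of the gate was 50.9% in LPS+RT, 59.9% in LPS, 0.926% in PBS+RT and 8.86% in PBS. The gate barcodes with less Ccl3 and Ccl4 in the PBS libraries also held markers of other cells. At least 2 UMIs of the monocyte and macrophage list were found in 46 of 95 in PBS+RT and 39 of 61 in PBS. Alveolar macrophage markers summed there to 6088 CPM in PBS+RT and 4302 CPM in PBS. The shares of the gate in these libraries are thus not shares of neutrophils alone.

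The selecting chemokines spread over a wide range. Ccl3 and Ccl4 together made up 0.204% to 7.44% of a barcode's UMIs in LPS+RT, with a median of 0.824%, and 0.201% to 13.9% in LPS, with a median of 1.23%. Just inside the threshold, 28 LPS+RT and 69 LPS barcodes lay between 0.2% and 0.3%, and just outside it 44 and 85 lay between 0.1% and 0.2%. Barcodes thus lay on both sides of the threshold with no gap. In PBS+RT and in PBS the Ccl3/Ccl4-low neutrophils had a median share of 0. These low neutrophils, named by the gate alone, are the gate barcodes under 0.2% that met the other limits. They were 184 in LPS+RT, 366 in LPS, 95 in PBS+RT and 61 in PBS.

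Ccl3 (ENSMUSG00000000982, chromosome 11, 83647844 to 83649355 on the minus strand, GRCm38) stood at 8212 CPM in LPS+RT, 11494 in LPS, 4180 in PBS+RT and 10424 in PBS. Ccl4 (ENSMUSG00000018930, chromosome 11, 83662584 to 83664683 on the plus strand), its neighbour, stood at 4344, 5399, 9261 and 19541 CPM in the same order. The levels in PBS+RT and PBS, here and below, come from 2 and 12 barcodes. Basophil markers were found in 1 of the 2 and 5 of the 12, so these are not levels of neutrophils alone. Both chemokines were lower in LPS+RT than in LPS, Ccl3 by 1.40-fold and Ccl4 by 1.24-fold, among barcodes already selected for them. Barcodes with fewer than 2 neutrophil UMIs, which include macrophages and carry free RNA of the droplets, had 74.6 CPM of Ccl3 in LPS+RT and 225 CPM in LPS. Hcar2 had 1531 CPM in LPS+RT and 1839 in LPS, and Csf3r 627 and 485. Il1r2, the decoy receptor for interleukin 1, had 686 and 510 CPM. Cxcr2, the receptor that guides neutrophils out of blood, was low in both, at 52.2 and 114 CPM.

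Comparing LPS+RT with LPS within these cells, 3017 genes were measured, that is, they had a mean of at least 50 CPM and at least 20 UMIs expected in the smaller group, with the selecting genes left out. The median log2 ratio over them was -0.01. At least 2-fold higher in LPS+RT were 119 genes (3.94%), and at least 2-fold lower 94 genes (3.12%). The 8 genes with the highest ratios (among them Rgs6, Cfap53, Crispld2, Tnfaip6, Klf4, Gpm6b and Mbd1) owed over 50% of their LPS+RT UMIs to the same single barcode, which had 26434 UMIs, the most of all 220. Without that barcode 103 of 2998 measured genes were at least 2-fold higher and 94 lower. The genes described below are therefore those of which no barcode held over 20% of the UMIs, a limit set after the values were seen, except where stated. By gene length, the median log2 ratio was 0.13 in the shortest 754 genes and -0.10 in the longest 754.

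**Figure D2:**
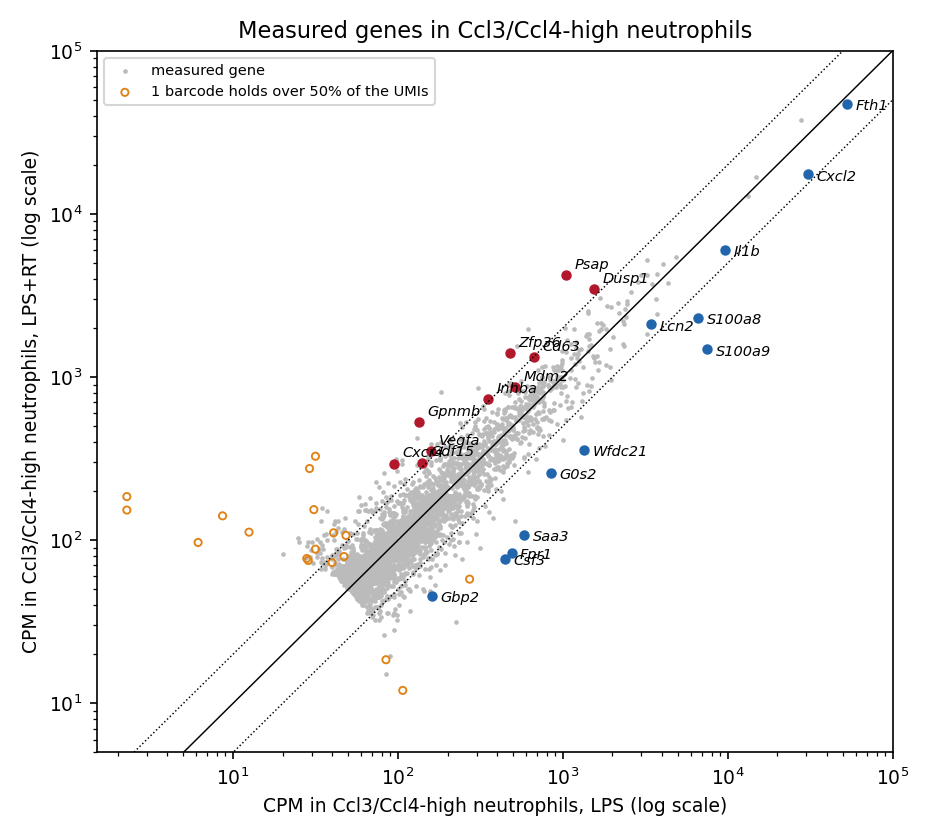
Level of each of 3017 measured genes in Ccl3/Ccl4-high neutrophils of LPS+RT (vertical axis, CPM, log scale) and of LPS (horizontal axis, CPM, log scale). Dotted lines mark 2-fold differences, red and blue points are named genes higher or lower in LPS+RT, and open circles are genes of which 1 barcode held over 50% of the UMIs. Psap and Zfp36 lie above the upper dotted line, and S100a8, S100a9, Fpr1 and Csf3 below the lower one.

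Many genes of blood neutrophils were lower in LPS+RT. S100a8 had 2316 CPM in LPS+RT (95% interval 2219 to 2417) and 6632 CPM in LPS (6556 to 6709), a 2.86-fold lower level. S100a9, its partner in calprotectin, had 1476 CPM in LPS+RT and 7498 CPM in LPS, 5.08-fold lower. At 1000 UMIs per barcode, a depth that left out 7 LPS+RT and 36 LPS barcodes, a UMI of S100a8 was found in 34.7% of LPS+RT barcodes (28.4 to 41.5) and 65.9% of LPS barcodes (62.7 to 69.1). Unthinned, these shares were 56.4% and 82.8%. In barcodes with fewer than 2 neutrophil UMIs the thinned shares were 4.77% in LPS+RT and 14.1% in LPS, at 72.2 and 459 CPM. The Ccl3/Ccl4-low neutrophils also had less S100a8 in LPS+RT, 5605 CPM against 16735 CPM in LPS. The difference was thus found in each of the 3 kinds of barcode, and the part of free RNA in it was not tested.

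Of the 24 neutrophil identity genes, 15 were measured and not used by the rule. Of these 8 were at least 2-fold lower in LPS+RT, 0 at least 2-fold higher, and the median log2 ratio was -1.03. The median of the same genes was -0.70 in the Ccl3/Ccl4-low neutrophils and -0.84 in barcodes with fewer than 2 neutrophil UMIs. G0s2, an inhibitor of fat breakdown, had 259 CPM in LPS+RT and 847 in LPS. Wfdc21 and Wfdc17, small secreted proteins of the whey acidic family, had 356 and 257 CPM in LPS+RT, against 1348 and 879 CPM in LPS. Mmp9, the gelatinase of neutrophil granules, had 180 CPM in LPS+RT and 432 in LPS. Others stood level: Clec4d, a receptor for fungal and mycobacterial glycolipids, had 2325 CPM in LPS+RT and 2404 CPM in LPS. Of the 14 granule protein genes 6 were measured, 2 of them at least 2-fold lower, with a median of -0.76. The granule genes of bone marrow precursors (Mpo, Elane, Prtn3 and Ctsg) had at most 2 UMIs in either library.

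The formyl peptide receptors, which sense bacterial and mitochondrial peptides, were among the genes with the lowest ratios. Fpr1 (ENSMUSG00000045551, chromosome 17) had 83.8 CPM in LPS+RT (66.1 to 105) and 489 CPM in LPS (469 to 510), 5.84-fold lower. A UMI of Fpr1 was present, after thinning, in 5.16% of LPS+RT barcodes and 29.7% of LPS barcodes, and in 1.70% and 2.54% of barcodes with fewer than 2 neutrophil UMIs. Fpr2 had 89.2 CPM in LPS+RT and 314 CPM in LPS, and its level of 81.9 and 71.2 CPM over those other barcodes is close to the LPS+RT value. Cxcr4, the receptor for Cxcl12 that marks aged neutrophils and neutrophils held in tissue, went the other way, with 295 CPM in LPS+RT (261 to 332) and 94.8 in LPS (85.9 to 104), 3.11-fold higher. Its thinned share was 20.7% in LPS+RT and 8.23% in LPS, against 5.52% and 5.36% in barcodes with fewer than 2 neutrophil UMIs. Of the 17 measured chemotaxis and pattern receptors, 2 were at least 2-fold lower and 1 higher, with a median log2 ratio of -0.17. Tlr4, the LPS receptor, had 399 CPM in LPS+RT and 559 CPM in LPS, and its co-receptor Cd14 1757 and 2025 CPM.

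Other genes with the lowest ratios have less plain roles in neutrophils. Cstdc4, a stefin-like protease inhibitor, had 31.5 CPM in LPS+RT and 225 CPM in LPS, 7.13-fold lower. Saa3, an acute phase protein, had 108 and 585 CPM, and it was also lower in barcodes with fewer than 2 neutrophil UMIs, at 112 CPM in LPS+RT and 1165 CPM in LPS. Fbxl5, which senses iron, had 131 and 510 CPM, and the linker histone gene Hist1h1e 15.2 and 85.0 CPM.

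Csf3 (ENSMUSG00000038067, chromosome 11), the gene of granulocyte colony-stimulating factor, had the largest difference among the cytokines. It stood at 77.2 CPM in LPS+RT (60.3 to 97.4) and 447 CPM in LPS (427 to 467), 5.79-fold lower with an interval of 4.57 to 7.44. No UMI of it was found in PBS+RT or PBS, where 0 UMIs allow up to 193 and 38.8 CPM at 3 counts. After thinning, a Csf3 UMI was present in 4.69% of LPS+RT barcodes (2.27 to 8.46) and 18.1% of LPS barcodes (15.6 to 20.8). The thinned shares were lower in LPS+RT in the other kinds of barcode too. They were 0.610% in LPS+RT and 2.43% in LPS in the Ccl3/Ccl4-low neutrophils, from 1 and 8 barcodes. In barcodes with fewer than 2 neutrophil UMIs they were 0.0567% and 0.821%. The receptor gene of Csf3, Csf3r, as given above, was 1.29-fold higher in LPS+RT.

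Of the interleukin 1 genes, Il1b, Il1a and Il1f9 were lower in LPS+RT by less than 2-fold and the inhibitor Il1rn was higher. Il1b (chromosome 2, 129364570 to 129371139) had 6014 CPM in LPS+RT and 9645 in LPS, 1.60-fold lower, and Il1a 796 and 1329 CPM. Il1f9, which encodes interleukin 36 gamma and is one of the markers given for these cells, had 386 CPM in LPS+RT, 620 in LPS, 322 in PBS+RT and 117 in PBS. Il1rn stood at 2810 CPM in LPS+RT and 2437 CPM in LPS. Tnf had 313 CPM in LPS+RT (278 to 352) and 376 in LPS (358 to 394), 1.20-fold lower. Its thinned shares, 20.7% in LPS+RT (15.4 to 26.7) and 25.7% in LPS (22.8 to 28.7), overlapped in their intervals. Vegfa, the growth factor of vessels, was 2.21-fold higher, at 350 and 158 CPM. Inhba, a subunit of activin A that was named by the comparison with low neutrophils below, was 2.08-fold higher, at 733 and 353 CPM. Il6 had 111 CPM in LPS+RT and 40.7 in LPS, but 1 barcode held 74.5% of the LPS+RT UMIs. In LPS, 139 of the 179 Il6 UMIs lay in the 5 barcodes with at least 2 basophil UMIs. In LPS+RT, 22 of 102 lay in the 1 such barcode. The Il6 ratio is thus not one of neutrophils alone. Of the 11 measured cytokines and growth factors, 2 were at least 2-fold higher (Vegfa and Il6) and 1 lower (Csf3), with a median log2 ratio of -0.26.

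The CXC chemokines that recruit neutrophils through Cxcr2 differed by nearly the same ratio. Cxcl2 (ENSMUSG00000058427, chromosome 5) was the most abundant chemokine, with 17448 CPM in LPS+RT (17179 to 17720), 30663 in LPS (30499 to 30827), 8361 in PBS+RT and 3419 in PBS. It was 1.76-fold lower in LPS+RT than in LPS. Cxcl1 had 208 and 353 CPM and Cxcl3 887 and 1489 CPM in LPS+RT and LPS, 1.70-fold and 1.68-fold lower. Of 7 measured chemokines, 1 (Ccl9, at 92.5 and 220 CPM) was at least 2-fold lower and none at least 2-fold higher, and 6 of 7 were lower, with a median of -0.75. This median was -0.01 when gate barcodes with markers of other cells were let in. For the same genes the median was 0.92 in the Ccl3/Ccl4-low neutrophils and -0.66 in barcodes with fewer than 2 neutrophil UMIs. Ccrl2, a receptor that holds chemerin at the cell surface, was listed with the chemokines and stood at 3344 CPM in LPS+RT and 2603 CPM in LPS.

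The 3 CXC genes lie in 1 cluster on chromosome 5 and carry the same NF-kB-type stretch ahead of their starts, which is why their promoter sequences are shown here beside that of Ccl3. The sequences are RefSeq's, build GRCm38.p6, written 5′ to 3′ on the strand of the gene, with matches to GGGANNTTC on either strand in capitals. The stretch reads nearly the same on both strands, so each gene has 2 matches that overlap.
Cxcl1, chr5:90891134-90891224, plus strand: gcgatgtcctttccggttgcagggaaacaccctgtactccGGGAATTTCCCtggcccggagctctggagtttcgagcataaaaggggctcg
Cxcl2, chr5:90903762-90903852, plus strand: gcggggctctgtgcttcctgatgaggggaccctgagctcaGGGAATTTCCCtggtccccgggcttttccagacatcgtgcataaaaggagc
Cxcl3, chr5:90785988-90786078, plus strand: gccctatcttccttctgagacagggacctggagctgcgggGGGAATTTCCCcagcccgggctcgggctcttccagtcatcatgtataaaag
Ccl3, chr11:83649379-83649498, minus strand: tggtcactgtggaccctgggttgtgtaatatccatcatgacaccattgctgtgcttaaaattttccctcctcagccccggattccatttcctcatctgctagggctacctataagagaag
In the CXC genes the stretch begins 71, 97 and 73 bases before the start site of Cxcl1, Cxcl2 and Cxcl3. Among all 32851 promoters in the table, 3.23% hold GGGANNTTC in the 250 bases before the start, and among the 9 chemokine genes with an entry these 3 do. Ccl3 has no match in its 250 bases, of which 120 are printed, ending short of the start in the gene position given above. The printed stretches of the CXC genes also end short of their start sites. A match is a description of letters and says nothing of what binds there.

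Genes of the NF-kB pathway itself differed little. Of 19 measured, none was at least 2-fold different, and the median log2 ratio was -0.14. Nfkb1 had 1190 CPM in LPS+RT and 1815 CPM in LPS, and the inhibitor Nfkbia, an early target, had 2125 and 2356 CPM. Tnfaip3, the deubiquitinase A20 that ends the signal, had 812 and 683 CPM. Survival and death genes were alike in this, with 0 of 13 measured at least 2-fold different and a median of -0.24. The antiapoptotic Mcl1 had 1307 CPM in LPS+RT and 1547 CPM in LPS, and the proapoptotic Bcl2l11 485 and 357 CPM, with 23.5% of its LPS+RT UMIs in 1 barcode.

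Psap (chromosome 10, 60277627 to 60302597), the precursor of the saposins that help to degrade lipids in lysosomes, had 4216 CPM in LPS+RT (4084 to 4350) and 1045 CPM in LPS (1015 to 1076), 4.03-fold higher. Gpnmb, a membrane protein known from macrophages with loaded lysosomes, had 529 and 135 CPM, found in 42 of 220 and 71 of 911 barcodes. Cd63, of lysosomal and granule membranes, had 1321 CPM in LPS+RT and 671 CPM in LPS. The protease Ctsb had 2012 and 1031 CPM, and the galectin Lgals3 2551 and 1412 CPM. Of the 12 measured genes of the tissue-resident and aged neutrophil list, 9 were higher in LPS+RT, 1 of them at least 2-fold (Cxcr4), and 1 was at least 2-fold lower (Clec5a, at 77.2 and 244 CPM), with a median of 0.34. Siglecf, a marker of tissue-held neutrophils and of eosinophils, was at 7.62 CPM in LPS+RT and 7.05 in LPS. Other genes of the highest ratios were Itpr2, a calcium channel of the endoplasmic reticulum, at 1975 and 616 CPM, and Id2, an inhibitor of basic helix-loop-helix factors, at 424 and 130 CPM. Rab15, a GTPase of endosome traffic, had 315 CPM in LPS+RT and 97.3 CPM in LPS, while it was at 2.44 and 2.91 CPM in barcodes with fewer than 2 neutrophil UMIs.

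The barcodes were also split by whether they held S100a8 or S100a9. No UMI of S100a8 or S100a9 was found in 34.5% of LPS+RT barcodes (28.3 to 41.2, 76 of 220) and in 10.5% of LPS barcodes (8.62 to 12.7, 96 of 911), at median depths of 3985 and 4139 UMIs. In barcodes with fewer than 2 neutrophil UMIs, S100a8 had a UMI in 17.7% in LPS+RT and 39.2% in LPS, and the part of free RNA in the split was not tested. In LPS+RT the barcodes without them had 5805 CPM of Psap and 838 CPM of Gpnmb, and those with them 3443 and 378 CPM. In LPS the values were 1732 and 360 CPM without, and 979 and 113 CPM with. Every barcode was selected for Ccl3 and Ccl4, so their presence in both kinds was fixed by the rule. Ccl3 was at 8816 CPM without and 7919 CPM with in LPS+RT, and at 11769 and 11467 CPM in LPS. Csf3r, a gene of the gate, was at 466 CPM without and 705 CPM with in LPS+RT, and at 323 and 500 CPM in LPS. Cd68, found in macrophages and at a lower level in neutrophils, was at 526 CPM without and 294 CPM with in LPS+RT, and at 303 and 182 CPM in LPS. Adgre1, of the same marker list, went the other way in LPS+RT, at 116 CPM without and 163 CPM with. In LPS it was at 156 and 104 CPM. Lyz2 was lower in the barcodes without, at 1274 and 1600 CPM in LPS+RT and 1072 and 2016 CPM in LPS. Psap was higher in LPS+RT than in LPS in both kinds of barcode, by the values above. The part of the split in the Psap difference was not tested.

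Immediate early genes, which the dissociation of tissue also induces, were higher in LPS+RT, by their median, in all 3 kinds of barcode. In the Ccl3/Ccl4-high neutrophils 15 of 16 measured genes were higher, 2 of them at least 2-fold, with a median of 0.44. Zfp36, which ends cytokine transcripts by their AU-rich elements, had 1398 CPM in LPS+RT and 476 CPM in LPS, and Dusp1, a phosphatase of MAP kinases, had 3467 and 1544 CPM. The median of the same genes was 0.41 in the Ccl3/Ccl4-low neutrophils and 0.55 in barcodes with fewer than 2 neutrophil UMIs. Whether handling of the lungs had a part in this was not tested.

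Targets of p53, the transcription factor activated by DNA damage, were higher by small ratios. Of 8 measured, 7 were higher in LPS+RT, 2 of them at least 2-fold, with a median of 0.45. Cdkn1a (chromosome 17, 29090976 to 29100727), the p21 inhibitor of the cell cycle, had 632 CPM in LPS+RT, 437 in LPS, 900 in PBS+RT and 492 in PBS, the last 2 from 14 and 38 UMIs. It was 1.45-fold higher in LPS+RT than in LPS (interval 1.32 to 1.59). Mdm2, the ligase that degrades p53, had 864 and 512 CPM in LPS+RT and LPS, 1.69-fold higher. Trp53inp1 had 88.1 and 42.3 CPM, and Gdf15, a stress cytokine, 299 and 140 CPM, with 18.2% of the LPS+RT UMIs of Gdf15 in 1 barcode. The log2 ratio of Gdf15, 1.10, was 0.64 with each barcode weighted equally and 0.97 without the barcodes of highest doublet score. It was 0.36 with the rule applied to barcodes thinned to 1000 UMIs, which selected 263 barcodes in LPS+RT and 1366 in LPS. These alternatives were all under 2-fold. The median of these genes was 0.65 in the Ccl3/Ccl4-low neutrophils and 0.75 in barcodes with fewer than 2 neutrophil UMIs.

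Interferon genes can be read only in part, since the rule limits 6 of them. Of the 20 further genes of the type I list present in the tables (of 22 listed), 4 were measured, with 2 at least 2-fold lower in LPS+RT and a median of -0.62. Of the 17 interferon-gamma genes 5 were measured, with 2 at least 2-fold lower and a median of -0.76. That median was -1.42 with no limit on the 6 interferon genes. It was -1.35 with the rule applied to barcodes thinned to 1000 UMIs, which selected 263 barcodes in LPS+RT and 1366 in LPS. The median of the same interferon-gamma genes was -1.05 in the Ccl3/Ccl4-low neutrophils and -1.22 in barcodes with fewer than 2 neutrophil UMIs. Gbp2, a guanylate-binding protein, had 45.7 CPM in LPS+RT and 162 CPM in LPS, and Irf1, a transcription factor of the response, 83.8 and 193 CPM. Cd274, the checkpoint ligand PD-L1 that interferon can induce, had 1001 CPM in LPS+RT and 748 CPM in LPS, a log2 ratio of 0.42. Its direction turned to -0.19 with no limit on the 6 interferon genes and to -0.11 with thinning.

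Genes of glycolysis and hypoxia were mostly lower in LPS+RT, 12 of 14 measured, of which 3 at least 2-fold (Slc2a1, Pfkp and Gapdh), with a median of -0.51. For the same genes the median was -0.38 in the Ccl3/Ccl4-low neutrophils and -0.44 in barcodes with fewer than 2 neutrophil UMIs. Gapdh had 132 CPM in LPS+RT and 303 in LPS, and the glucose transporter Slc2a1 46.8 and 102 CPM. The exceptions were Vegfa, given above, and Hilpda, a lipid droplet protein, at 776 and 672 CPM. Targets of the oxidative stress factor NRF2 showed 0 of 10 measured genes at least 2-fold different, with a median of -0.20. Unfolded protein and integrated stress genes (7 measured) had a median of 0.33, and lipid mediator genes (3 measured) 0.22, both with none at least 2-fold different. Ptgs2, the inducible cyclooxygenase, had 2094 CPM in LPS+RT and 1745 CPM in LPS.

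**Figure D3:**
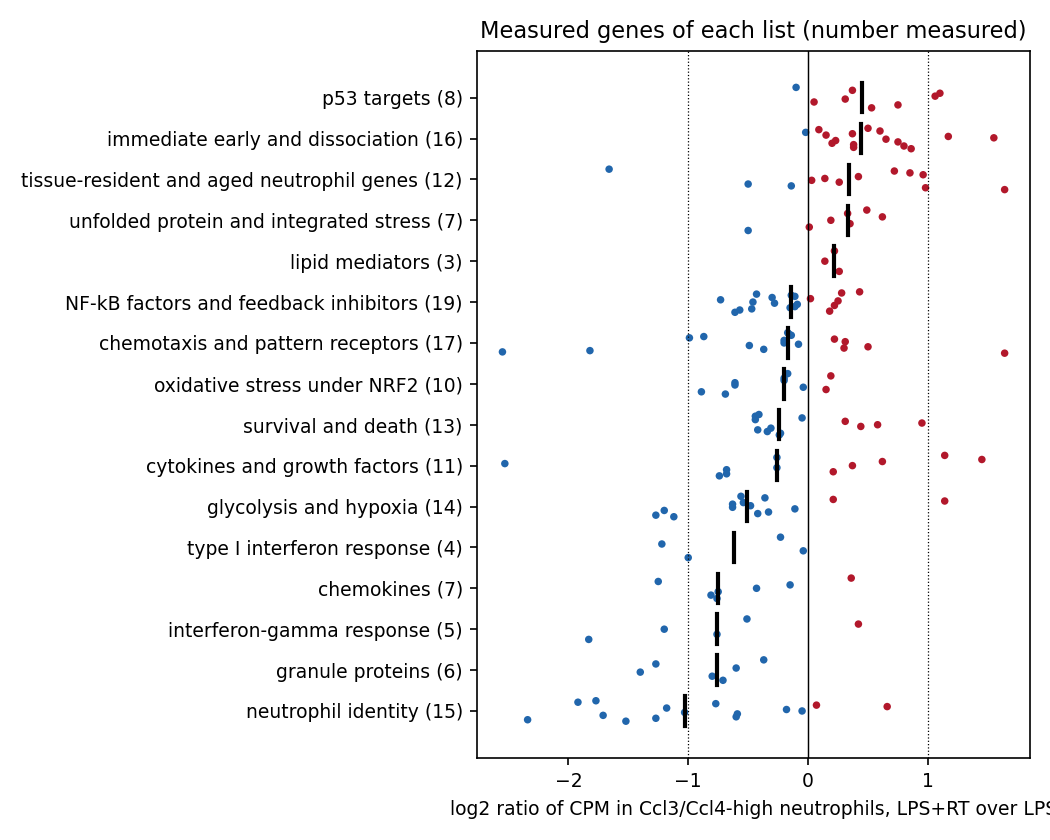
Log2 ratio of CPM in Ccl3/Ccl4-high neutrophils, LPS+RT over LPS (horizontal axis), for each measured gene (point) of 16 lists (rows, number measured in brackets), with the list median as a black bar and dotted lines at 2-fold. The median was -1.03 for neutrophil identity and 0.45 for p53 targets, beside -0.01 over all 3017 measured genes.

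The selected cells were also set against the Ccl3/Ccl4-low neutrophils of the same library. This is the contrast on which they were chosen, so it only describes them. In LPS+RT 3230 genes were measured, of which 327 (10.1%) were at least 2-fold higher in the Ccl3/Ccl4-high neutrophils and 453 (14.0%) at least 2-fold lower. In LPS 3190 genes were measured, 189 (5.92%) higher and 352 (11.0%) lower. With the chemokine threshold at 0.5% the counts were 201 higher and 395 lower of 3155 measured in LPS+RT, and 93 and 278 of 3154 in LPS. Of 2889 genes measured in both, 134 (4.64%) were higher and 207 (7.17%) lower in both libraries. The low neutrophils held RNA of other cells: 3 MHC class II genes (H2-Aa, H2-Ab1 and H2-Eb1) summed to 6405 CPM there in LPS+RT and 1034 CPM in LPS, against 97.9 and 96.6 CPM in the high ones. The surfactant gene Sftpc reached 2439 CPM in the low neutrophils of LPS. Among barcodes with at most 2 UMIs of those class II genes, 242 of 3237 measured genes were higher and 417 lower in LPS+RT. In LPS they were 169 and 313 of 3164. The values that follow are log2 ratios within that limit, LPS+RT first and LPS second, and the limit was set after the values were seen.

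The genes named as highest in both libraries, before that limit, included Gdf15 (2.61 and 2.97), Il1f9 (2.21 and 2.22), Mreg (2.41 and 2.17), Sod2 (2.09 and 1.81), Spp1 (2.48 and 1.87), Slc31a2 (1.83 and 1.94), Aoah (2.00 and 1.88) and Hgsnat (2.29 and 1.87). Sod2 is the mitochondrial superoxide dismutase and an NF-kB target, Aoah an enzyme that inactivates LPS by removing its acyl chains, Slc31a2 a copper transporter and Hgsnat a lysosomal enzyme. Spp1 encodes osteopontin, an adhesive cytokine. Inhba had ratios of 1.61 and 1.94. Of the 10 measured genes of the NRF2 list, 7 were at least 2-fold higher in each library without the class II limit. With it the list's median was 0.93 in LPS+RT and 1.38 in LPS. The ferritin chain Fth1 alone took 47186 CPM in the Ccl3/Ccl4-high neutrophils of LPS+RT and 53150 CPM in those of LPS, against 20257 and 21644 CPM in the low ones. Of the measured cytokines, 6 of 11 in LPS+RT and 5 of 10 in LPS were at least 2-fold higher, without the class II limit. Tnf had ratios of 1.99 and 1.54 and Il1rn 1.51 and 1.28, while Il1b was level at -0.29 and -0.10.

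Genes lower in the Ccl3/Ccl4-high neutrophils were led by those of blood neutrophils. Retnlg, a resistin-like protein abundant in young neutrophils, had 31.5 CPM in the high and 1329 CPM in the low neutrophils of LPS+RT, and 55.2 and 2009 CPM in those of LPS. Stfa2l1 had ratios of -3.71 and -2.59, S100a9 -2.77 and -1.77, and S100a8 -1.60 and -1.47. Pglyrp1, a granule protein that binds bacterial peptidoglycan, had -2.46 and -2.20, Hp, haptoglobin, -2.21 and -1.82, and the integrin Itga4 -2.53 and -2.92. Selplg, the ligand of P-selectin used for rolling, had -1.57 and -1.69. In the chemokine list 3 genes, chosen after their values were seen, had high ratios in LPS and ratios near 0 in LPS+RT. Ccl2 had 0.11 and 3.13, Ccl9 0.02 and 2.51, and Cxcl1 0.30 and 2.81. In LPS+RT these stood at 116, 92.5 and 208 CPM in the high neutrophils and at 99.6, 87.0 and 137 CPM in the low ones, before the limit. Barcodes with fewer than 2 neutrophil UMIs had 43.2, 172 and 142 CPM of them in LPS+RT. The difference between the libraries was not tested.

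**Figure D4:**
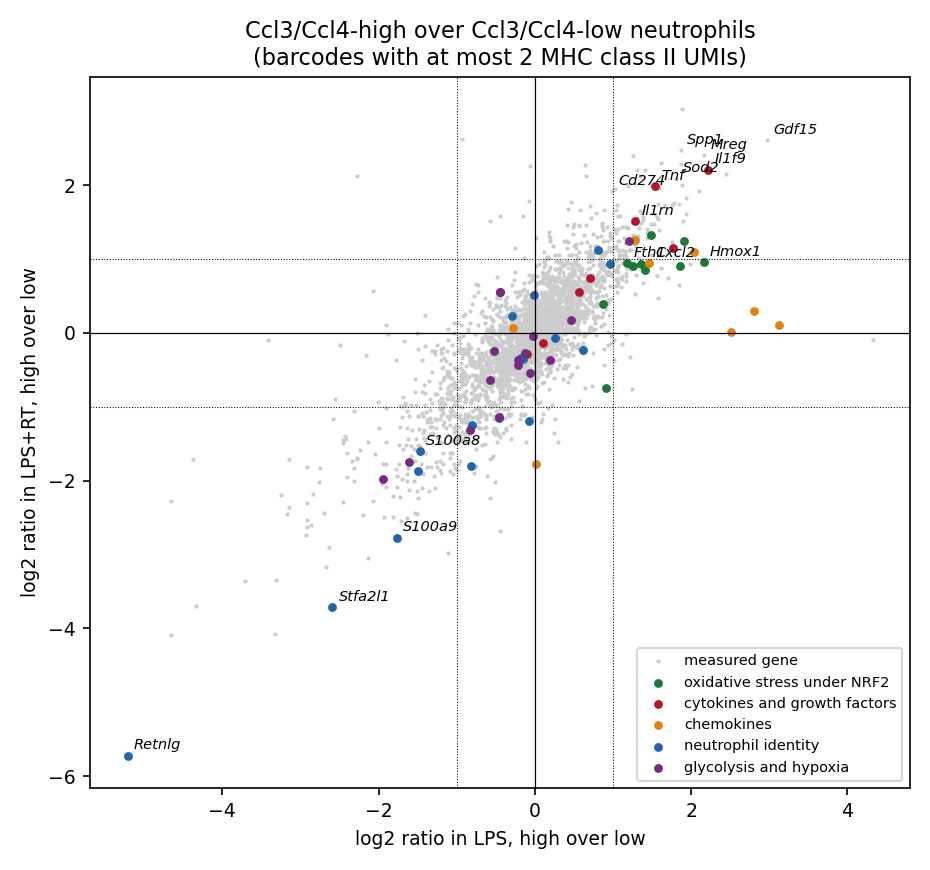
Log2 ratio of CPM, Ccl3/Ccl4-high over Ccl3/Ccl4-low neutrophils, in LPS+RT (vertical axis) and LPS (horizontal axis), for genes measured in both libraries, among barcodes with at most 2 MHC class II UMIs. Colours mark 5 lists and dotted lines 2-fold. Gdf15 (2.61 and 2.97) lies at the upper right and Retnlg (-5.72 and -5.21) at the lower left.

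Across the range of the Ccl3 and Ccl4 share, the gate barcodes differed in degree. In barcodes with at most 2 class II UMIs and a share of at least 2%, Csf3 was at 228 CPM in LPS+RT (39 barcodes) and 1003 CPM in LPS (275 barcodes). At a share of 0.5 to 1% it was at 27.5 CPM in LPS+RT (65 barcodes) and 128 CPM in LPS (220 barcodes). In both bins Csf3 was lower in LPS+RT than in LPS, with 7 UMIs behind the LPS+RT value at 0.5 to 1%. The part of the Ccl3 and Ccl4 share in the Csf3 difference was not tested. Il1f9 was at 409 CPM in LPS+RT and 842 CPM in LPS at 2% or more, and at 491 and 527 CPM at 0.5 to 1%. S100a8 at 0.5 to 1% was at 1912 CPM in LPS+RT and 6625 CPM in LPS, and under 0.02% at 9307 and 21489 CPM. Retnlg stood at 2894 CPM in LPS+RT and 3533 CPM in LPS under a share of 0.02%, and at 86.4 and 136 CPM already between 0.2% and 0.5%. Il1b went up and down across the bins, at 4976 to 7686 CPM in LPS+RT and 8998 to 10559 CPM in LPS. Cd274 had 183 and 267 CPM under 0.02% and 1520 and 920 CPM at 2% or more, so that LPS+RT was the lower library at the low end of the share and the higher at the high end.

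**Figure D5:**
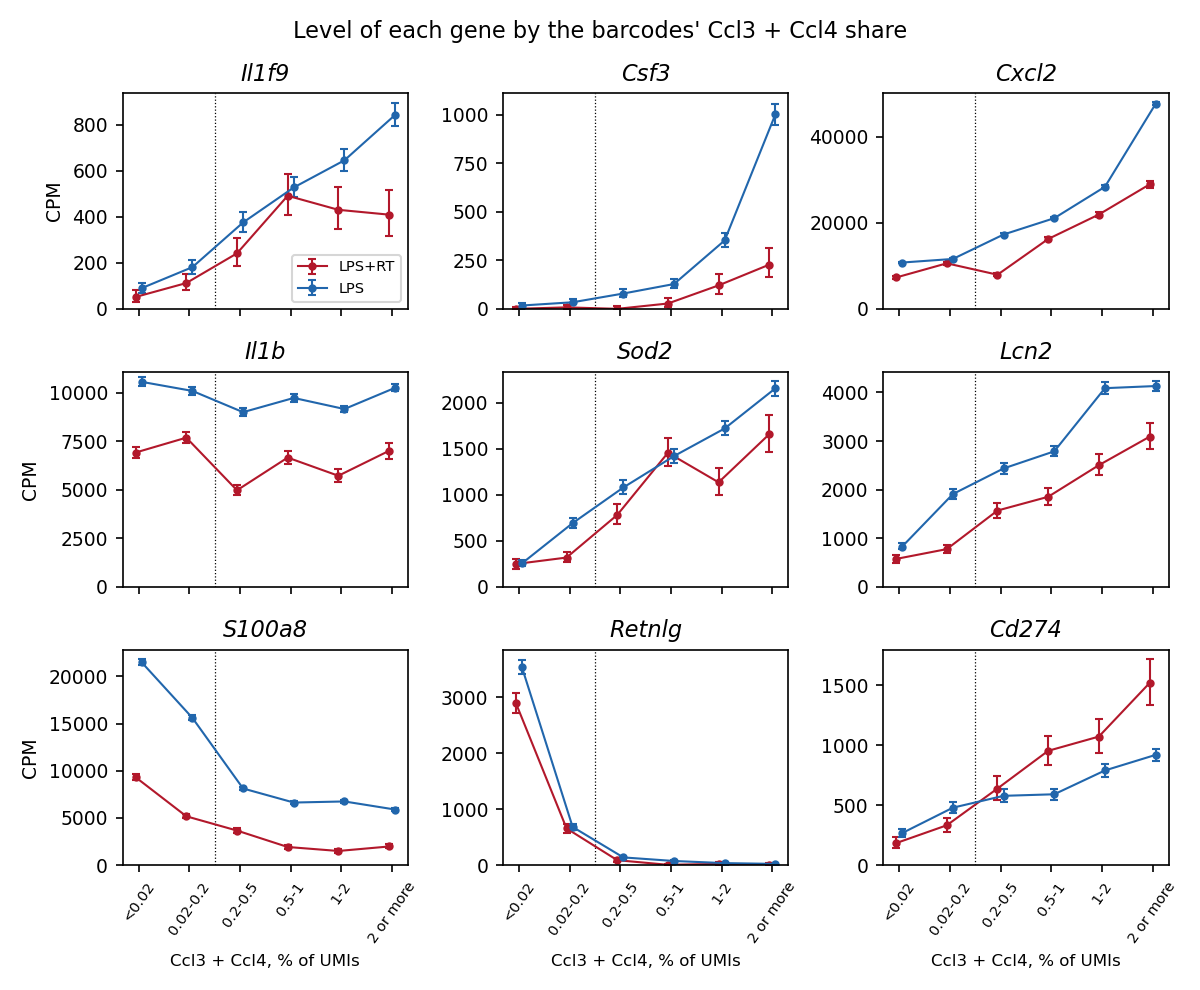
CPM of 9 genes (vertical axes) in neutrophil-gate barcodes binned by the percent of UMIs from Ccl3 and Ccl4 (horizontal axes), in LPS+RT (red) and LPS (blue), with exact 95% Poisson intervals. The dotted line marks the selecting threshold of 0.2%. Csf3 at 2% or more was 228 CPM in LPS+RT and 1003 CPM in LPS, and Il1b lay between 4976 and 7686 CPM in LPS+RT and between 8998 and 10559 CPM in LPS.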

How the data were processed

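Each of the 4 deposited matrices gives the UMI count of every gene in a barcode, with no normalization. Version 7.0.1 of Cell Ranger wrote them, as the file headers record. The submitters' processing notes list Seurat 4.3.0, R 4.2.2 and mm10. Whether intronic reads were counted is not given in the sources used here. The tables hold 32285 genes and 65995600 to 80013887 UMIs per library. Barcode sequences were not analysed here, so barcodes shared between libraries were not counted. No 2 libraries shared a barcode with identical counts.

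Gene positions are from GENCODE M21. The cells, the 16 role lists and the 13 marker lists of other cells were chosen with earlier results of these data known. UMIs were summed per library and divided by the sum (CPM) with Python 3.11.15, numpy 2.4.6, scipy 1.17.1 and pandas 2.3.3. A ratio has an exact conditional binomial interval, a share a Clopper-Pearson interval and a level a Poisson interval, at 95%. A gene at 0 counts takes 3 counts. Groups under 50 barcodes entered no gene comparison, so 3 of the 4 planned ones were not made. The genes named are the 8 at each end of the log2 ratios, computed after 10 CPM were added (10 at each end against low neutrophils). Mitochondrial, ribosomal protein, hemoglobin, immunoglobulin, selecting and other-cell marker genes were left out, as were genes whose level was under 50% of that in other barcodes. Further named were 2 to 4 members of each list with at least 20 CPM, and 12 fixed genes. After the values were seen, up to 12 each way were named among genes spread over barcodes. Doublets were scored against simulated ones but not removed in the values reported. The fold rule and the intervals were tested on simulated Poisson sums, which hold no spread between barcodes. The gate was tested on a small made-up matrix. Thinning was to 1000 UMIs. The thinned shares of barcodes with a UMI keep the barcodes chosen at full depth. The thinned alternative applied the rule anew to the thinned counts. Alternatives varied the UMI, mitochondrial, chemokine, interferon, other-marker and level limits, doublets, thinning and equal weights per barcode. Leaving out basophil-marked barcodes, class II-marked barcodes, 1 barcode, or barcodes without a Csf3r UMI was added after the data were seen. Of the 8 highest genes, 1 is not reported here.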

Additional observations from a re-analysis of the deposited data

How the results depend on the processing

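The share of Ccl3/Ccl4-high barcodes in the gate was lower in LPS+RT than in LPS under every alternative that was run. With Ccl3 and Ccl4 at 0.5% of UMIs or more it was 36.4% in LPS+RT and 48.9% in LPS. With no limit on the 6 interferon genes it was 71.5% in LPS. With no limit on the 7 markers of other cells it was 33.3% in LPS+RT, 49.7% in LPS and 2.91% in PBS. With barcodes thinned to 1000 UMIs it was 58.3% in LPS+RT, 70.5% in LPS and 8.24% in PBS+RT. There the rule was applied to the thinned counts. It selected 263 of 451 gate barcodes in LPS+RT, 1366 of 1937 in LPS and 7 of 85 in PBS+RT. Limits of 0 UMIs and of under 10 UMIs leave out fewer barcodes at that depth. The 213 genes at least 2-fold different between LPS+RT and LPS, of 3017 measured, became 431 of 5131 with a mean CPM of at least 20 in place of 50. The count stayed within 1.5 times under the other 13 alternatives. Against low neutrophils, thinning gave 137 genes higher and 148 lower of 1611 measured in LPS+RT, and 120 and 207 of 3096 in LPS. A mean CPM of at least 20 gave 517 and 869 of 5570 in LPS+RT and 310 and 794 of 5651 in LPS. The neutrophil identity list had the lowest median in the values reported, but with thinning it was at -0.62, against -1.35 for the interferon-gamma list. With no limit on the 6 interferon genes the medians were -1.09 and -1.42 in the same order. Tnfaip6 alone changed sign among 35 named genes at least 2-fold different, to -0.21 on the log2 scale with the threshold of 0.5%, and was 0.09 without the 1 barcode of most UMIs. None of 12 list medians beyond 0.2 in size changed sign. The PBS libraries had at most 17 selected barcodes under any alternative, so their gene comparisons could not be run. With 220 barcodes in LPS+RT, genes with a mean under 50 CPM entered no count of ratios. No paired analysis was possible because each group holds 1 library.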
